A study of Mus musculus with 8 samples.

Results

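Fgf8, Fgf17 and Fgf18 make up the Fgf8 subfamily of fibroblast growth factors (FGFs), and their levels and the use of their exon bins were followed in the cerebellum of newborn mice with a mutation of Sufu. They were chosen by name, 3 of the 24062 genes and 19 of the 219958 exon bins in the deposited tables, with the difference between mutant and control libraries of these data already known. The levels, fold changes and bin shares below are therefore a description of these 3 genes and not a test of them. All 3 genes passed the filter on low counts, which left 15789 genes for the fit.

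RNA with polyA tails was sequenced from whole cerebella of single pups at postnatal day 2, 4 of them mutant and 4 control, on a mixed C57BL/6 background. The mutants had the genotype Math1-Cre; Sufu flox/-, so that 1 Sufu allele was missing in every cell and the floxed one was open to deletion where Cre was active. The controls were littermates, Sufu flox/+ in the series text and only control in the labels, and whether they carried Cre is not stated. In the cross given by the labels, every pup of either group also receives 1 floxed Sufu allele and 1 Math1 mgfp allele from the same parent. Math1, also called Atoh1, drives Cre in the lineage of the cerebellar granule cell precursors, so the recombined cells are a part of the tissue. The Sufu protein holds back Hedgehog signalling by binding Gli proteins. Each sample title carries a letter, P or R, shared by 2 mutants and 2 controls, and its meaning is not stated. Mutants 1 and 2 and controls 1 and 2 carry P, and the other libraries carry R.

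The proteins of the Fgf8 subfamily are secreted ligands that bind FGF receptors, mainly their IIIc splice forms, together with heparan sulfate. In the embryo Fgf8 and Fgf17 are made at the isthmus, the organizer at the border of midbrain and hindbrain from whose hindbrain side the cerebellum forms, and Fgf18 is made in and around it. A bound receptor signals through Frs2, Ras and the ERK kinases, which induce the Etv4 and Etv5 transcription factors and the Spry and Dusp genes, whose products damp the same pathway.

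Gene counts came to between 21479565 and 26638284 per library, with 18739 to 19456 genes detected. Sufu was at 31.7, 34.4, 36.8 and 39.8 CPM, the counts scaled to a common library size, in mutants 1 to 4, against 47.7, 51.0, 55.9 and 60.7 CPM in controls 1 to 4, and the groups did not overlap. All 10 listed markers of granule cell precursors and all 7 of Purkinje cells had counts in every library, which fits the tissue named in the labels. Mutant 4 stood apart in the 11 Hox genes of the hindbrain behind the cerebellum, which summed to 6.47 CPM in that library, against 63.5 to 170 CPM in mutants 1 to 3 and 118 to 205 CPM in controls. Mutants 2 and 4 also had 41 and 22 counts of Xist, against 31713 to 53528 in the 6 other libraries. Every control was among those 6, so low Xist occurred in mutants alone and was not balanced between the groups. Values with and without mutant 4, and without mutants 2 and 4, are given below.

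Fgf8, the organizer's best known ligand, was higher in each mutant than in any control. It had 55, 130, 159 and 288 counts in mutants 1 to 4, against 18, 34, 23 and 23 counts in controls 1 to 4. Scaled to library size these were 2.41, 5.59, 7.03 and 10.7 CPM in mutants, against 0.697, 1.33, 1.05 and 1.08 CPM in controls. Mutant 1 was the lowest and mutant 4 the highest of the mutants, and the counting intervals of the lowest mutant (1.81 to 3.13 CPM) and the highest control (0.919 to 1.85 CPM; exact Poisson, 95%, counting error only) overlapped slightly. The means were 6.43 ± 3.44 CPM in mutants and 1.04 ± 0.259 CPM in controls (SD, n = 4 each), a ratio of 6.19. The fitted log2 fold change of Fgf8 was 2.63 (SE 0.41), the highest among the 15789 genes, whose values reached -2.85 in the other direction. Every mutant was higher than every control in 3.6% of those genes and lower in 2.96%.

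The mutants also differed more from one another in Fgf8 than the controls did. The highest mutant had 4.45 times the CPM of the lowest, and the highest control 1.90 times that of the lowest. As a share of the mean, the SD was 53.5% in mutants and 25.0% in controls. It was also larger in mutants for Fgf17, at 89.6% against 39.4% in controls, and for Fgf18, at 35.7% against 13.3%. The wider spread of the mutants was thus not particular to Fgf8. The biological coefficient of variation fitted over both groups was 0.367 for Fgf8, against a median of 0.147 over all genes tested. Without mutant 4 the log2 fold change was 2.26, and without mutants 2 and 4 it was 2.17.

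Fgf17, which acts beside Fgf8 at the organizer, gave few reads in any library. It had 4, 17, 7 and 2 counts in mutants 1 to 4, against 14, 5, 13 and 10 in controls 1 to 4. The levels were 0.175, 0.730, 0.309 and 0.0743 CPM in mutants, against 0.542, 0.195, 0.594 and 0.469 CPM in controls. Both the highest and the lowest of the 8 values were mutants, so the groups overlapped fully. The means were 0.322 ± 0.289 CPM in mutants and 0.450 ± 0.178 CPM in controls (SD, n = 4 each), and the fitted log2 fold change was -0.49 (SE 0.58). It was -1.30 without mutant 2 and -0.14 without mutant 4, so single libraries set its size.

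Fgf18, known for its part in bone, lung and cortical development as well as at the organizer, had 136, 142, 110 and 64 counts in mutants 1 to 4, against 158, 158, 161 and 114 in controls 1 to 4. The levels were 5.95, 6.10, 4.86 and 2.38 CPM in mutants, against 6.12, 6.17, 7.36 and 5.35 CPM in controls. Mutant 4 was the lowest of all libraries and mutant 3 the next, while mutants 1 and 2 lay among the controls. The means were 4.82 ± 1.72 CPM in mutants and 6.25 ± 0.828 CPM in controls (SD, n = 4 each), with a log2 fold change of -0.38 (SE 0.26). Without mutant 4 the log2 fold change was -0.15, and without mutants 2 and 4 it was -0.21. Mutant 4 was thus at the same time the highest library for Fgf8 and the lowest for Fgf17 and Fgf18.

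**Figure D1:**
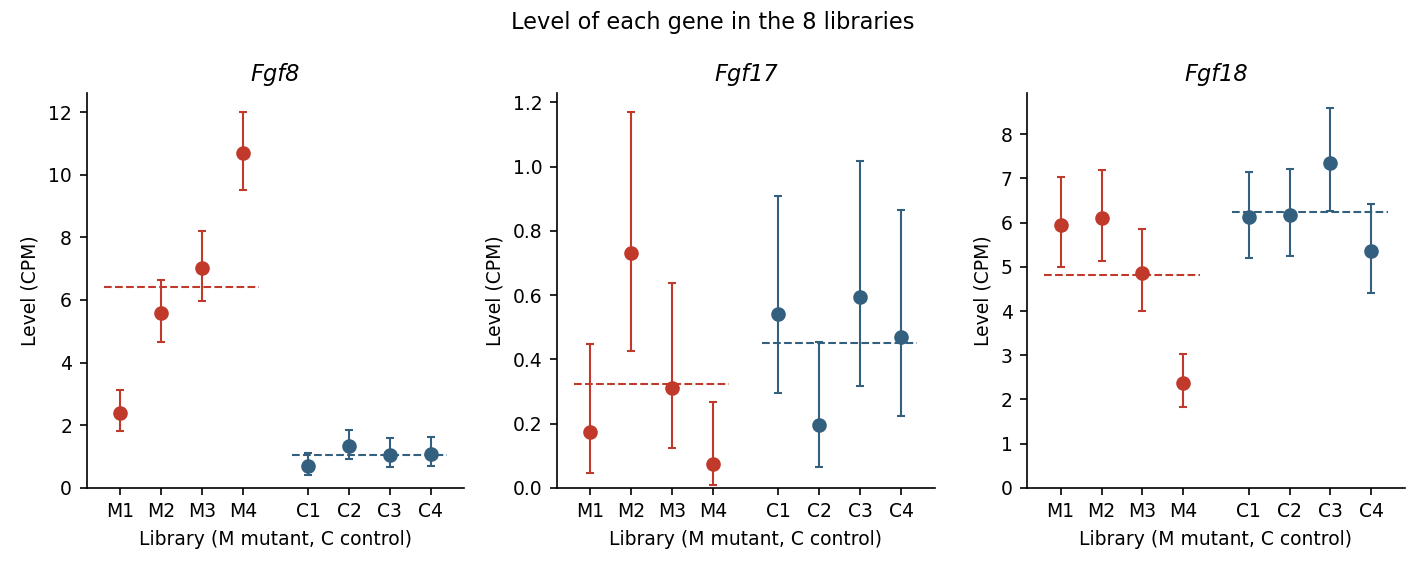
Level of Fgf8, Fgf17 and Fgf18 in CPM (vertical axes, each with its own scale) in mutants 1 to 4 (red, left) and controls 1 to 4 (blue, right). Points are libraries with exact Poisson 95% intervals for counting error, and dashed lines are group means; Fgf8 separates the groups, at 2.41 to 10.7 CPM in mutants and 0.697 to 1.33 CPM in controls, and the other 2 genes do not.

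None of the 3 genes was called by edgeR's quasi-likelihood test at an adjusted p under 0.05, where 0.0% of all genes tested were called. Fgf8 alone of the 3 had an unadjusted p under 0.05, as did 12.6% of all genes, and Fgf8 alone was called by DESeq2, which called 0.298% of all genes. Since the genes were chosen with this contrast known, nothing is read from these counts. In whole tissue, fewer cells that make a transcript and less of it per cell cannot be told apart, and the same holds for more of either.

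The balance among the 3 ligands differed between the groups. To compare levels between genes, CPM was divided by the length of the gene's merged exons in kilobases. Fgf8 was at 4.76 ± 2.55 CPM per kilobase in mutants and 0.769 ± 0.192 in controls (SD, n = 4 each). Fgf18 was at 4.06 ± 1.45 CPM per kilobase in mutants and 5.26 ± 0.698 in controls, and Fgf17 at 0.191 ± 0.171 in mutants and 0.267 ± 0.105 in controls. Among 22 secreted and intracellular FGF genes ordered by this level, Fgf8 took place 8 in mutants and 12 in controls, Fgf18 place 9 in mutants and 5 in controls, and Fgf17 place 15 in both. The neighbours in mutants were Fgf9, at 4.89 ± 0.399 CPM per kilobase, and Fgf18, and neither differed from Fgf8 beyond the spread. In controls the neighbours of Fgf8 were Fgf10 at 1.52 ± 0.153 and Fgf7 at 0.355 ± 0.155 CPM per kilobase, where Fgf10 lay above all control values of Fgf8 and the highest of Fgf7, 0.565, passed the lowest of Fgf8, 0.516. Fgf17 lay between Fgf7 and Fgf22 in mutants and between Fgf23 and Fgf22 in controls, and its values overlapped those of each. Fgf18 in controls lay beside Fgf14 at 6.71 ± 1.40 and Fgf1 at 4.88 ± 0.790 CPM per kilobase, and its values overlapped those of both.

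The ratio of Fgf8 to Fgf18, each per kilobase, was 0.356, 0.805, 1.27 and 3.96 in mutants 1 to 4, against 0.100, 0.189, 0.126 and 0.177 in controls 1 to 4. Fgf8 was thus below Fgf18 in all 4 controls and in mutants 1 and 2, and above it in mutants 3 and 4. Of the summed level of the 3 ligands, Fgf8 made up 25.8%, 42.6%, 54.9% and 79.5% in mutants 1 to 4, against 8.62%, 15.6%, 10.6% and 14.3% in controls 1 to 4. The sum itself was 9.02 ± 1.43 CPM per kilobase in mutants and 6.30 ± 0.744 in controls (SD, n = 4 each). Mutant 1, at 6.90, lay among the controls, whose highest was 7.33.

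The title letter was not used to choose the genes, so differences by letter were tested. Fgf8 averaged 8.87 CPM in the mutants with letter R and 4.00 CPM in those with P, and 1.07 CPM in the controls with R and 1.01 CPM in those with P. With genotype in the fit, the log2 difference of R over P was 0.76 (SE 0.35, edgeR adjusted p = 0.200) for Fgf8, -0.25 (SE 0.60, adjusted p = 0.830) for Fgf17 and -0.34 (SE 0.24, adjusted p = 0.412) for Fgf18. None of the 3 passed, where 0.019% of all genes did. Fgf18 averaged 3.62 CPM in mutants with R and 6.02 CPM in mutants with P, against 6.35 CPM in controls with R and 6.14 CPM in controls with P.

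Whether the difference between mutants and controls itself varied with the letter was tested with an interaction term. It was 1.08 (SE 0.66, edgeR adjusted p = 0.369) for Fgf8, -1.81 (SE 1.12, adjusted p = 0.373) for Fgf17 and -0.80 (SE 0.42, adjusted p = 0.291) for Fgf18, on the log2 scale. None of the 3 passed, where 3.2% of all genes did. Within letter P the log2 fold changes of mutant over control were 1.97 for Fgf8, 0.29 for Fgf17 and -0.03 for Fgf18, and within letter R they were 3.02, -1.54 and -0.85 in the same order. The value of Fgf17 within letter P rests on mutant 2, at 0.730 CPM, since mutant 1, at 0.175 CPM, was below both controls of that letter.

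**Figure D2:**
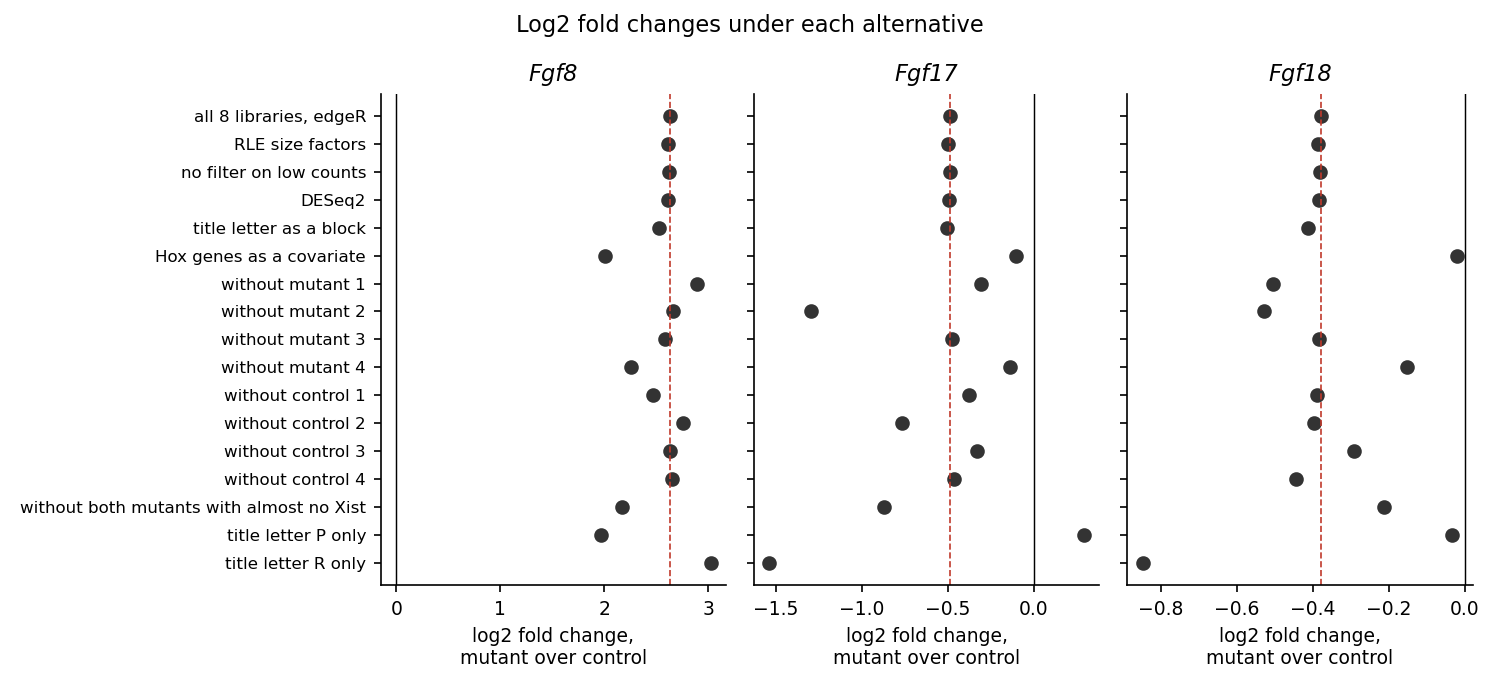
Log2 fold change of mutant over control (horizontal axes, each with its own scale) for the 3 genes under each of 17 settings, 1 point a setting, with the value from all 8 libraries as a dashed red line and 0 as a solid line. Fgf8 stays between 1.97 and 3.02, Fgf17 between -1.54 and 0.29, and Fgf18 between -0.85 and -0.02.

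Exon bins were read next, to see whether the counts came from the same stretches of each gene in both groups. The bin table splits Fgf8 into 8 bins, Fgf17 into 5 and Fgf18 into 6. Fgf8 lies on chromosome 19, Fgf17 on chromosome 14 and Fgf18 on chromosome 11, all on the minus strand. Bin numbers follow the chromosome, so bin 1 holds the 3′ end of these transcripts and the last bin the 5′ end. The files used here give no bin positions, so no bin was matched to an exon or a splice form, although Fgf8 is known for splice forms that differ near the start of the protein.

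All 8 bins of Fgf8 held counts in every mutant. Bin 1 had 29, 74, 103 and 147 counts in mutants 1 to 4, against 8, 19, 11 and 11 counts in controls 1 to 4. That was 32.0 ± 4.67% of the gene's bin counts in mutants and 25.8 ± 4.92% in controls (SD, n = 4 each). Bin 8, at the 5′ end, had 4, 22, 14 and 44 counts in mutants 1 to 4, against 6, 5, 6 and 4 counts in controls 1 to 4, or 6.72 ± 2.32% in mutants and 11.7 ± 3.66% in controls. Bins 2 and 3 took 19.4 ± 1.49% and 20.1 ± 4.98% of the bin counts in mutants, and 18.9 ± 3.70% and 21.5 ± 5.27% in controls. The 4 inner bins numbered 4 to 7 each averaged between 3.99% and 7.27% in mutants and between 2.41% and 7.78% in controls. The shares overlapped between the groups in each of the 8 bins, and every bin was higher in mutants than in controls when counts were summed over libraries, from 52 against 4 counts in bin 5 to 353 against 49 in bin 1. Mutant 4 gave the most counts to each bin, and mutant 1 was within the range of the controls in bins 6, 7 and 8. In bin 7 mutant 1 had 3 counts, against 4, 4, 3 and 3 in controls 1 to 4.

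Fgf18 had its largest share of bin counts in bin 1, at the 3′ end, in every library. Bin 1 took 63.2%, 63.4%, 55.0% and 46.9% of its bin counts in mutants 1 to 4, against 56.3%, 57.3%, 48.1% and 44.6% in controls 1 to 4, a mean of 57.1 ± 7.84% in mutants and 51.6 ± 6.18% in controls (SD, n = 4 each). In both groups the shares were higher in the libraries with letter P than in those with R. Over 5451 minus-strand genes with differing numbers of bins, the median share of bin 1 was 21.5% to 23.4% per library. Bin lengths are not known here, so these shares do not show how evenly a gene was read. Bins 2 and 3 of Fgf18 took 15.8 ± 2.86% and 15.5 ± 4.21% in mutants, and 17.2 ± 1.19% and 18.4 ± 2.80% in controls. Bin 5 was almost unused, with 4 counts over the mutants and 2 over the controls.

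Fgf17 had 42 bin counts over the 4 mutants and 61 over the 4 controls, too few to describe their spread along the gene. The largest part fell in bin 1, with 19 counts in mutants and 19 in controls. Of the 19 bins of the 3 genes, 7 passed the filter on low counts, namely bins 1 to 3 of Fgf8 and bins 1 to 4 of Fgf18. None of these 7 was called for a difference in use (edgeR adjusted p = 1.0 each), where 0.0112% of 152302 bins were called. By Simes' method, which gives 1 value a gene, neither Fgf8 nor Fgf18 was called (edgeR adjusted p = 1.0), where 0.00749% of 13351 genes were. The smallest unadjusted p among the 7 bins was 0.248, for bin 3 of Fgf18.

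**Figure D3:**
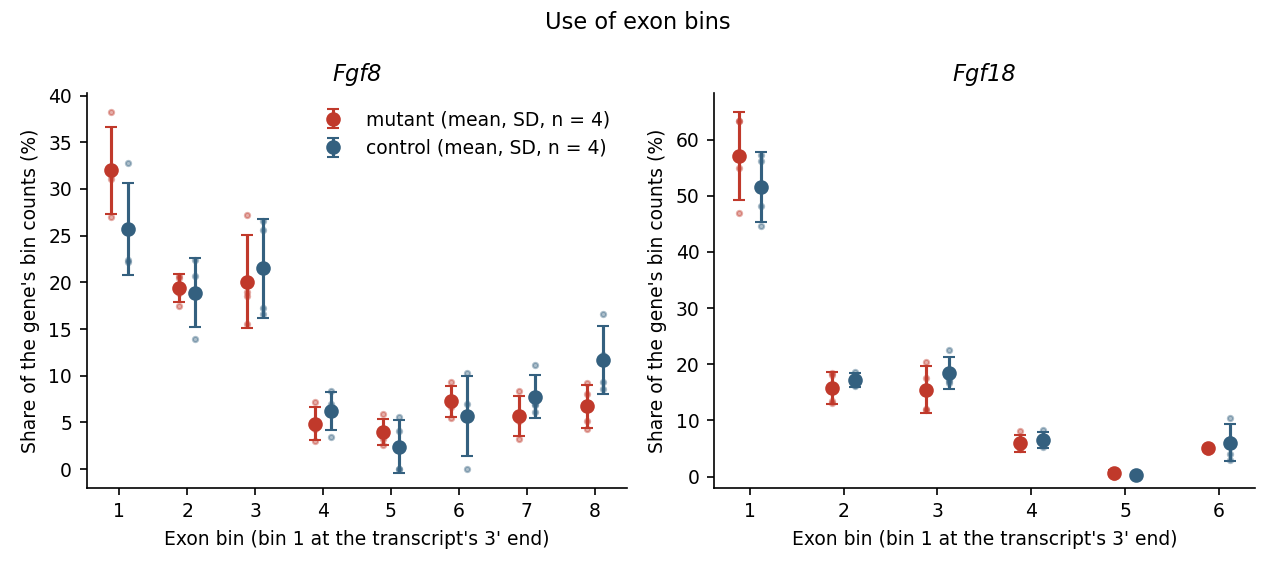
Share of a gene's bin counts in each exon bin (vertical axes, in percent) along Fgf8 and Fgf18 (horizontal axes, bin 1 at the 3′ end), with means and SD of 4 mutants (red, left of each pair) and 4 controls (blue) and single libraries as small points. Bin 1 of Fgf8 averages 32.0% in mutants and 25.8% in controls, and the groups overlap in every bin of both genes.

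Genes that receive the signal were read beside the ligands. The FGF receptors lay on both sides of 0, with higher means in mutants for 3 of 5 and a median log2 fold change of 0.19, against 0.01 over all genes tested. Fgfr3, also made by astroglia, was at 91.2, 88.1, 69.2 and 20.4 CPM in mutants 1 to 4, against 139, 121, 97.4 and 99.0 CPM in controls 1 to 4, and the groups did not overlap (log2 fold change -0.76, SE 0.36). Fgfr2 was at 54.0 ± 2.04 CPM in mutants and 45.3 ± 5.14 CPM in controls (SD, n = 4 each), also without overlap. Every mutant was higher than every control in 3.6% of all genes and lower in 2.96%. Fgfr1, a main receptor of Fgf8, was at 160 ± 24.1 CPM in mutants and 140 ± 17.4 CPM in controls, and Fgfr4 at 8.09 ± 2.58 CPM in mutants and 6.38 ± 0.579 CPM in controls, both with overlap. No receptor was called by edgeR or by DESeq2, and 1, Fgfr2, had an unadjusted p under 0.05, where 12.6% of all genes did. The median was 0.10 without mutant 4 and -0.01 without mutants 2 and 4.

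Feedback inhibitors and targets of FGF signalling lay on 1 side, and each of the 14 tested had a higher mean in mutants than in controls. Spry3 was too low to test. The median log2 fold change of the 14 was 0.30, with a range of 0.04 to 0.85, against 0.01 over all genes tested, of which 8254 were higher and 7535 lower. None was called by edgeR, where 0.0% of all genes were, 9 had an unadjusted p under 0.05, where 12.6% did, and DESeq2 called 1 of them, Etv5 (DESeq2 adjusted p = 0.0346), where it called 0.298%. In 4 of the 14, Etv5, Spry4, Etv1 and Il17rd, every mutant was higher than every control, as in 3.6% of all genes. The median was 0.23 in a fit without mutant 4 and 0.22 with a Hox term in the fit. These genes respond to many receptors that signal through ERK, so they do not report on the 3 ligands alone.

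Etv5, a transcription factor induced by FGF signalling, was at 115, 148, 159 and 241 CPM in mutants 1 to 4, against 78.3, 86.7, 105 and 106 CPM in controls 1 to 4. Dusp6, a phosphatase that inactivates ERK, was at 34.3, 47.3, 52.8 and 67.6 CPM in mutants 1 to 4, against 31.2, 32.6, 34.7 and 38.4 CPM in controls 1 to 4. In both genes mutant 1 was the lowest and mutant 4 the highest of the mutants, as for Fgf8. Dusp5, another ERK phosphatase, was at 17.4 ± 6.36 CPM in mutants and 9.70 ± 2.36 CPM in controls, and Spry1, an inhibitor of receptor signalling, at 29.3 ± 6.64 CPM in mutants and 20.6 ± 2.40 CPM in controls (SD, n = 4 each). Etv4, the near relative of Etv5, was at 47.9 ± 8.62 CPM in mutants and 44.0 ± 2.86 CPM in controls, a log2 fold change of 0.12 (SE 0.13).

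The 16 genes that relay the signal inside the cell had a median log2 fold change of 0.02, with 9 higher and 7 lower. The median was -0.09 without mutant 1, -0.04 without mutant 2 and -0.11 within letter R. Those with the smallest unadjusted p were lower in mutants. In 3 of the 16, Frs3 and Map2k1 among them, every mutant was lower than every control, as in 2.96% of all genes. Frs3, an adaptor that docks on the receptor, was at 22.7 ± 5.02 CPM in mutants and 33.7 ± 3.60 CPM in controls (SD, n = 4 each). Map2k1, the kinase that activates ERK, was at 54.3 ± 6.61 CPM in mutants and 66.7 ± 3.82 CPM in controls. Mapk3, which encodes ERK itself, was at 122 ± 12.6 CPM in mutants and 145 ± 12.2 CPM in controls, and Hras1 at 67.4 ± 8.66 CPM in mutants and 83.1 ± 12.8 CPM in controls. None was called by edgeR or by DESeq2, and 4 of 16 had an unadjusted p under 0.05, against 12.6% of all genes.

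Of 14 genes of heparan sulfate synthesis and editing, 10 were higher and 4 lower in mutants, with a median log2 fold change of 0.09, which was 0.05 without mutant 4, 0.16 within letter P and -0.03 within letter R. Ndst3, a sulfotransferase, was at 91.6 ± 20.3 CPM in mutants and 65.5 ± 7.55 CPM in controls (SD, n = 4 each). Its groups did not overlap, as in 3.6% of all genes with every mutant higher. Glce, the epimerase of the chain, was at 113 ± 24.2 CPM in mutants and 84.9 ± 9.97 CPM in controls. The extracellular sulfatases lay on opposite sides. Sulf1 was at 58.0 ± 11.2 CPM in mutants and 44.3 ± 7.12 CPM in controls, with overlap. Sulf2 was at 129 ± 45.1 CPM in mutants and 181 ± 17.1 CPM in controls. Every mutant was lower than every control in Sulf2, as in 2.96% of all genes. None of the 14 was called by edgeR or by DESeq2, and 3 had an unadjusted p under 0.05, against 12.6% of all genes.

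The other FGF genes, secreted and intracellular, lay on both sides of 0. Of 14 tested, 6 were higher and 8 lower in mutants, with a median log2 fold change of -0.17. The intracellular Fgf11, Fgf12, Fgf13 and Fgf14 were all lower, at -0.25, -0.33, -0.36 and -0.20, so this median is not that of secreted ligands alone. The median was 0.11 within letter P, 0.03 with a Hox term in the fit and -0.36 within letter R. Without mutant 4 it was -0.07, and without mutant 1 it was -0.32. Fgf5 was at 10.5, 10.6, 13.7 and 17.3 CPM in mutants 1 to 4, against 4.61, 5.46, 9.14 and 9.91 CPM in controls 1 to 4, and the groups did not overlap, as in 3.6% of all genes with every mutant higher. Fgf15, an endocrine-type FGF that is made in the embryonic brain, was at 15.7 ± 7.19 CPM in mutants and 9.38 ± 3.22 CPM in controls (SD, n = 4 each), and Fgf3 at 6.21 ± 1.42 CPM in mutants and 4.63 ± 1.15 CPM in controls. Fgf1 was at 19.0 ± 7.35 CPM in mutants and 26.7 ± 4.32 CPM in controls. None was called by edgeR or by DESeq2, and 2 of 14 had an unadjusted p under 0.05, close to the 12.6% of all genes. Fgf4, Fgf6, Fgf16, Fgf20 and Fgf21 were too low to test.

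**Figure D4:**
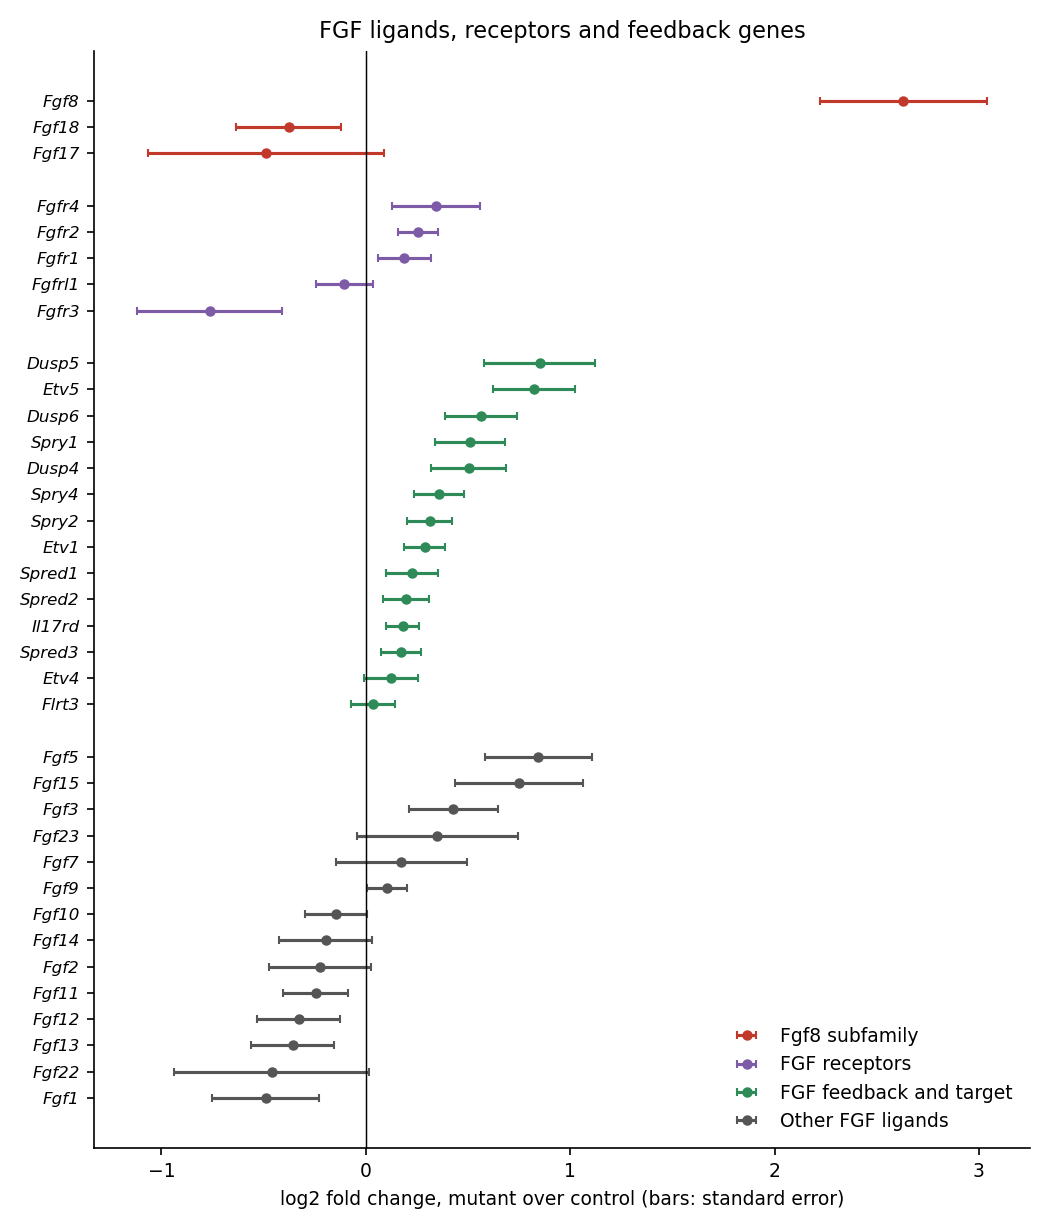
Log2 fold change of mutant over control with its standard error (horizontal axis) for the 3 genes (red) and the tested FGF receptors (purple), feedback and target genes (green) and other FGF ligands (grey), 1 gene a line, ordered within each group. Fgf8 stands at 2.63, all 14 feedback and target genes lie between 0.04 and 0.85, and receptors and other ligands lie on both sides of 0.

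Genes that share the midbrain-hindbrain organizer with Fgf8 were not higher as a group. Of 11 tested members, 4 had higher and 7 lower means in mutants, with a median log2 fold change of -0.17, and Pax5 was too low to test. The median was 0.02 within letter P and -0.46 within letter R, and -0.29 without control 2 and -0.06 without control 3. Within letter P and without control 3, Pax5 passed the filter, so those medians are over 12 genes and the others over 11. Otx2, which marks the midbrain side and is also made in choroid plexus and granule cell precursors, was at 33.1, 45.7, 39.3 and 46.4 CPM in mutants 1 to 4, against 25.2, 29.8, 22.9 and 24.4 CPM in controls 1 to 4. It was the only member of this list with no overlap, as in 3.6% of all genes with every mutant higher. It was also the only one with an unadjusted p under 0.05, where 12.6% of all genes had one. No other member was called by DESeq2 (DESeq2 adjusted p = 0.00384 for Otx2), which called 0.298% of all genes. En2 and Sp5 had higher means in mutants with overlap, En2 at 62.2 ± 27.6 CPM in mutants and 42.0 ± 7.35 CPM in controls and Sp5 at 24.5 ± 12.3 CPM in mutants and 15.2 ± 3.88 CPM in controls (SD, n = 4 each). Irx2 was at 42.9 ± 2.88 CPM in mutants and 53.2 ± 11.4 CPM in controls. Wnt1, the organizer's other signal, was at 0.386 ± 0.0549 CPM in mutants and 0.524 ± 0.195 CPM in controls.

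Markers of the cell types in and around the dissected tissue were read in the same libraries. Each of the 10 markers of granule cell precursors was higher on average in mutants, with a median log2 fold change of 0.44 (0.25 without mutant 4). Atoh1 was at 17.1, 26.3, 35.0 and 48.8 CPM in mutants 1 to 4, against 18.3, 18.3, 17.5 and 22.7 CPM in controls 1 to 4, so that mutant 1 lay below every control. A score was taken for each list, the mean log2 CPM of its genes less the control mean. For this list mutants 1 to 4 scored 0.00, 0.30, 0.51 and 0.95, and the controls lay between -0.15 and 0.16. Nhlh1, Mfap4, Zic4 and Pax6 had the smallest unadjusted p of the list, 7 of 10 had one under 0.05, against 12.6% of all genes, and none was called by edgeR or by DESeq2. The summed level of the markers ran from 1371 to 2533 CPM in mutants and from 1309 to 1538 CPM in controls.

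For the FGF feedback and target genes mutants 1 to 4 scored 0.13, 0.30, 0.35 and 0.62, and the controls lay between -0.10 and 0.10. For the Hox genes mutants 1 to 4 scored 0.17, -1.56, -0.53 and -4.20, with controls between -0.43 and 0.42, and the 11 Hox genes all had lower means in mutants (median log2 fold change -0.92, and -0.52 without mutant 4). Among the mutants the highest Fgf8 and the lowest Fgf18 went with the highest granule cell precursor score and the lowest Hox score, all in mutant 4. Mutant 1 had a Hox score and a granule cell precursor score within the range of the controls, and it had 2.41 CPM of Fgf8, against 1.33 CPM in the highest control. With the mean Hox level as a covariate the log2 fold change was 2.01 for Fgf8, -0.10 for Fgf17 and -0.02 for Fgf18. The part of the tissue make-up in these values was not tested further.

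**Figure D5:**
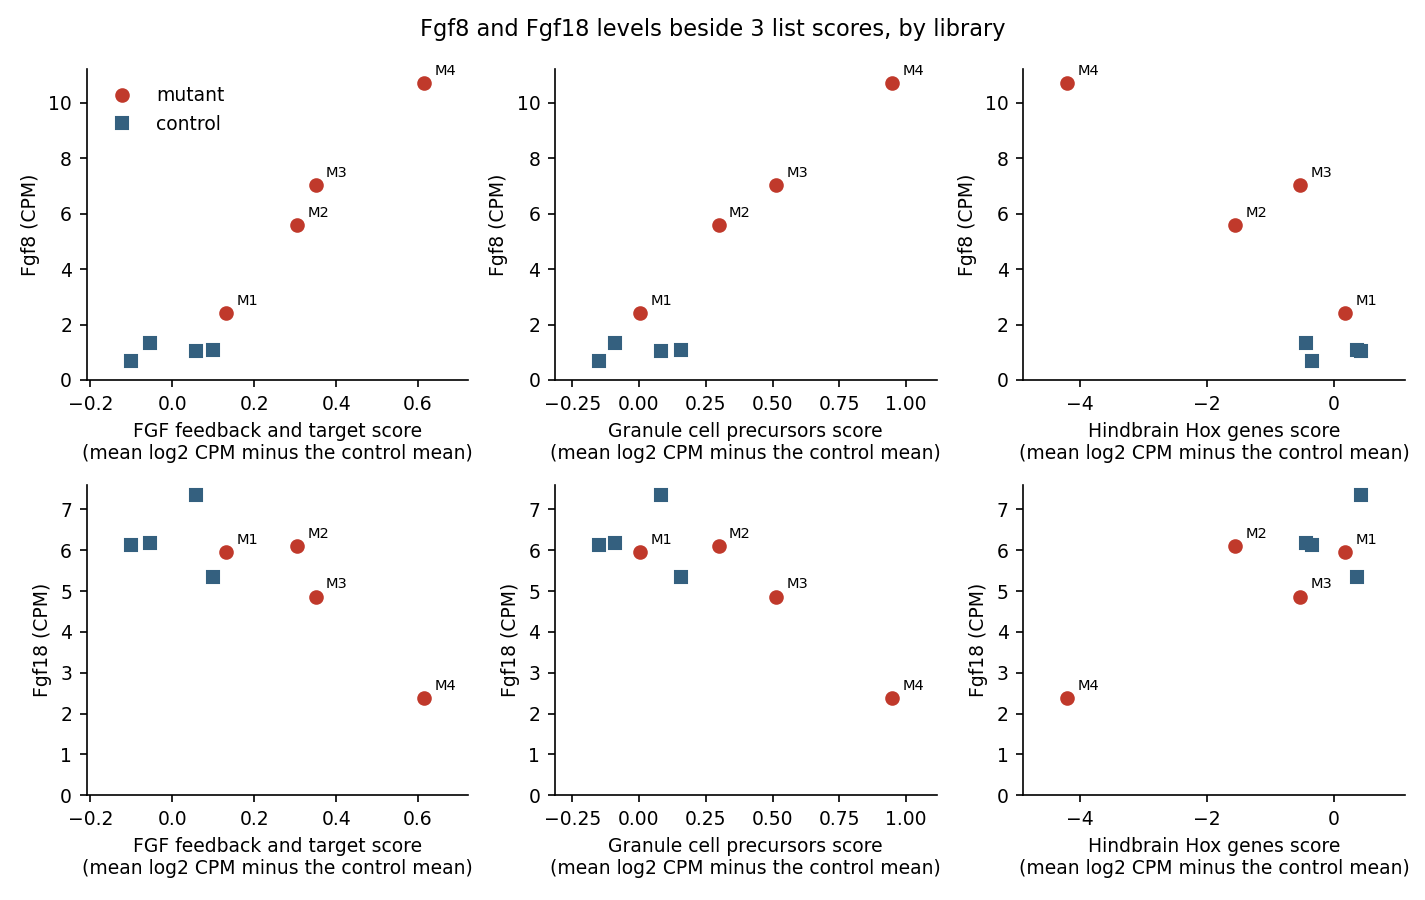
Level of Fgf8 (upper row) and Fgf18 (lower row) in CPM against the scores of the FGF feedback and target genes, the granule cell precursor markers and the hindbrain Hox genes (horizontal axes, mean log2 CPM less the control mean), 1 point a library, with mutants as red circles numbered M1 to M4 and controls as blue squares. Mutant 4, at 10.7 CPM of Fgf8 and 2.38 CPM of Fgf18, has the highest feedback and granule cell precursor scores and the lowest Hox score.

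Other neighbours of the cerebellum differed as well. The 8 choroid plexus markers were all higher in every mutant than in any control, as were 3.6% of all genes, with a median log2 fold change of 0.89, and their summed level was 3390 to 5963 CPM in mutants and 1327 to 3120 CPM in controls. Within the mutants this list did not follow Fgf8, since its score was highest in mutant 2, at 1.28, and 0.94 in mutant 4. DESeq2 called 4 of the 8, against 0.298% of all genes, and edgeR none, though all 8 had an unadjusted p under 0.05. Of 8 markers of cranial motor and brainstem neurons, 6 had lower means in mutants (median log2 fold change -0.86, and -0.52 without mutant 4, -0.20 within letter P and -1.87 within letter R), with a summed level of 11.1 to 70.4 CPM in mutants and 56.2 to 80.2 CPM in controls, and DESeq2 called 1, Isl1. The 7 Purkinje cell markers all had higher means in mutants, with a median of 0.32 that was 0.21 without control 1. Of the 4 tested midbrain markers 3 had lower means, with a median of -0.54 that was -0.33 without mutant 4 or without control 3. Of 7 meninges markers 5 had lower means, with a median of -0.08. With 1 library left out the meninges median lay between -0.18, without control 1, and 0.05, without control 2. Within letter P it was -0.30. No tested marker was at 0 counts in any library.

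The genes whose levels followed each ligand most closely over the 8 libraries were ranked by Pearson's r of log2 CPM among 15788 genes, as a description with no test. For Fgf8 they were Dock1 (r = 0.984), Katnal2 (0.976), Akna (0.975), Sfxn2 (0.974) and Ahrr (0.974), and 186 genes had an r above 0.9. For Fgf17 they were Ankrd24 (0.992), Ryr1 (0.976), Dscaml1 (0.971), Hook2 (0.965) and Tmem145 (0.965), with 63 genes above 0.9. For Fgf18 they were Otp (0.991), Npy1r (0.990), Parm1 (0.988), Pmel (0.985) and Syt17 (0.984), with 642 genes above 0.9. The points share the split into mutants and controls and the setting apart of mutant 4, so a high r over 8 libraries is common. With the group means taken off, Dock1 had an r of 0.932 with Fgf8 and place 49, and none of the first 5 genes for Fgf8 stayed among the first 5, against 2 of 5 for Fgf17 and 3 of 5 for Fgf18. By Spearman's rho 2 of 5 stayed for Fgf8, 1 for Fgf17 and 0 for Fgf18.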

How the data were processed

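The deposited data were gene counts and exon-bin counts, whole numbers that the authors had not normalized. The submitters' processing notes name mm9, the mouse build, and the tools TopHat, HTSeq and DESeq2, with no versions. The annotation and whether counting used strand are not given in the sources used here, so reads of overlapping or antisense genes cannot be told apart. The summary lines, which name no gene, held 24.8 to 34.3% of the entries of a gene table and were left out. The libraries are separate pups, per the labels, and no pair within a group agreed within sampling noise. Chi-square per degree of freedom was 29.2 to 81 for pairs of mutants and 7.42 to 33.9 for pairs of controls.

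The gene test was that of edgeR 4.0.16, under R 4.3.3 (filterByExpr, TMM, robust quasi-likelihood F test, two-sided, genotype as the only term) and adjusted by the Benjamini-Hochberg method over all 15789 genes. CPM are on TMM-scaled sizes, and standard errors were computed from each fold change and the F statistic. Bin use was tested with diffSpliceDGE in edgeR over 152302 bins. A read can be counted in several bins. DESeq2 1.42.0 was an alternative, as were other scaling, filters, covariates and left-out libraries. Scores and correlations used log2 CPM with a prior count of 2, computed from the deposited counts. Exon lengths are merged exons of GENCODE M21 on GRCm38, a build other than that of the counts, and were used only to divide levels. The direction of bin numbers was read from which end bin is larger: bin 1 exceeded the last bin in 90.5% of 7122 minus-strand genes and 8.70% of 7149 plus-strand genes. The gene fit and the bin-use fit were also run on simulated counts, the bin-use fit with scaling from the bin counts.

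The members and the 13 gene lists were chosen with earlier results of these data known. The genes named are the members, Sufu, up to 4 genes a list with the smallest p, and the 5 most like each member. Others were named after their values were seen, where the rule did not take them. They are Atoh1, Etv1, Etv4, Fgf11, Fgf12, Fgf13, Fgf14, Hs6st1, Il17rd, Spry4, Wnt1, Xist and the ligands nearest in level.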

Additional observations from a re-analysis of the deposited data

Results flagged for a closer look

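In mutants, the score of the midbrain-hindbrain organizer list was -0.09, -0.16, -0.03 and -0.80 in libraries 1 to 4, against -0.22 to 0.14 in controls. The gap of mutant 4 to the nearest other mutant was 0.833 of the whole range, just past Dixon's critical value for 4 samples. It was the 1 such case in 36 groups looked at, fewer than the share of 5% that chance gives. Mutant 4 is also the library with the lowest Hox score.

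In 2 genes of the lists the difference between mutants and controls varied with the title letter, in a test that 3.2% of all genes passed, so nothing particular to the lists is read from it. For Fgf11 the interaction was -0.794 on the log2 scale (edgeR adjusted p = 0.0477): with R the level was 24.1 and 20.9 CPM in mutants against 32.4 and 38.7 CPM in controls, and with P it was 33.8 and 30.6 CPM in mutants against 29.0 and 29.7 CPM in controls. For Hs6st1, a heparan sulfate sulfotransferase, it was -0.836 (edgeR adjusted p = 0.0366): with R the level was 98.7 and 84.5 CPM in mutants against 153 and 134 CPM in controls, and with P it was 111 and 128 CPM in mutants against 107 and 102 CPM in controls.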

How the results depend on the processing

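Over 16 alternatives the log2 fold change of Fgf8 ran from 1.97 to 3.02, always above 0, and its edgeR or DESeq2 adjusted p from 6.9e-07 to 1.0. It was under 0.05 in 2 of them, DESeq2 and the fit without mutant 1 (adjusted p = 0.0137), where Fgf8 was the 1 gene called. Fgf17 was below 0 in 15 of 16, and Fgf18 in all 16. Leaving out 1 library gave 2.26 to 2.89 for Fgf8, -1.30 to -0.14 for Fgf17 and -0.53 to -0.15 for Fgf18. Within letter R, Fgf17 was at -1.54 and Fgf18 at -0.85. The count of genes called, 0 with edgeR, was 47 with DESeq2, 5 within letter P, 1 within letter R and 0 to 1 with 1 library left out. DESeq2 called 1 feedback and target gene. With no genotype term 0 genes were called between letters, against 3. Bins called, 17, came to 11 with the title letter as a block and 1 to 20 with 1 library left out (1 without mutant 2), and genes by Simes' method to 1 to 2. The causes were not tested. The values of Sufu, the median of all genes tested, bin shares, most similar genes and every list but feedback and target were also compared. Of these, 22 shifted by more than the spread between libraries or the tolerance for counts and 404 did not. The 404 include counts of called list members that stayed at 0. The fits within 1 letter and without mutants 2 and 4 were chosen after seeing the data. No paired analysis was possible because replicate numbers only name the samples. Pairs of a mutant and a control with the same letter deviated from their group means with correlations of -0.07 to 0.23. For pairs with different letters the correlations were -0.28 to 0.09. With the letter as a block the log2 fold change of Fgf8 was 2.53 (edgeR adjusted p = 0.156). Counts of 2 to 17 for Fgf17 limit what can be said of it.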
